A study of Mus musculus with 4 samples.

Results

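The genes described here encode the channels through which calcium enters the cytosol of brain cells and their close relatives of the TRP superfamily. They were taken by symbol from the array annotation, as the voltage-gated calcium channel pore subunits (Cacna1), their alpha2delta (Cacna2d) and beta (Cacnb) subunits, ryanodine receptors (Ryr), IP3 receptors (Itpr), the STIM and ORAI genes, and the TRPC, TRPM and TRPV channels. Of 52 symbols with these stems 44 were members, each with 1 probe set, among 22206 gene probe sets in all. The other 8 (Itprip, Itpripl1, Itpripl2, Itprid1, Itprid2, Stimate, Trpc4ap and Trpc5os) do not name channel subunits and were left out. STIM proteins are sensors and not pores, but belong to the families named.

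Tissue was the brain cortex of male mice of the SAMP8 strain, an inbred line with early ageing and memory deficits, and both groups were of this strain. Treated mice were given TCQA, an abbreviation that the labels do not spell out, by mouth at 5 mg/kg each day. Control mice were given MilliQ water instead. All were caged singly from 7 months of age for 4 months, and dosing began at 11 months and lasted 1 month. There were 2 arrays for TCQA and 2 for control, each read as log2 signals on the Clariom S mouse array. The labels do not tie the arrays of a group to separate mice, so the spread between them may be partly technical.

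Voltage-gated calcium channels open when a neuron depolarizes. Their alpha1 subunit forms the pore, the beta subunit brings it to the membrane and tunes its gating, and the alpha2delta subunit sets how many channels reach the synapse. Ryanodine and IP3 receptors release calcium from the endoplasmic reticulum, and STIM sensors open ORAI pores in the plasma membrane when that store runs low. TRP channels pass mixed cations in response to lipids, phospholipase C signalling, temperature or chemical ligands.

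No calcium or TRP channel gene passed the all-gene test. Differences were about as large as the gaps between replicates and ran mostly toward lower values with TCQA. The smallest limma adjusted p among the 44 was 0.787, where adjustment is over all 22206 gene probe sets, and 0% of those passed at an adjusted p under 0.05. The mean was lower with TCQA for 30 of the 44 members (68.2%) and higher for 14, against 48.9% of all gene probe sets with a lower mean. The median log2 difference, TCQA minus control, was -0.12 over the members and 0.01 over all gene probe sets. Without regard to sign the median was 0.19 over the members and 0.17 over all gene probe sets. The members' median gap between replicates was 0.23 with TCQA and 0.16 in control. In whole tissue, fewer cells of a type and less RNA per cell cannot be told apart. This share is a description with no test.

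One member, Cacna1a, had an unadjusted p under 0.05 in limma, and it was lower. That is 2.27% of the members, against 6.24% of all gene probe sets in either direction and 2.86% in the lower direction, so the members were called no more often than the background. Cacna1a was also the 1 member of 44 that differed by over 1.5-fold, as did 4.67% of all gene probe sets. None of the 44 (0) reached the depositors' criterion of an unadjusted p under 0.05 with over 2-fold change, which 0.374% of all gene probe sets met. Both TCQA arrays lay below both control arrays for 9 of the 44 members and for 17.8% of all gene probe sets, and above both for 5 members and for 18.9% of all. Together 31.8% of the members and 36.6% of all gene probe sets had arrays that did not overlap between groups.

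**Figure D1:**
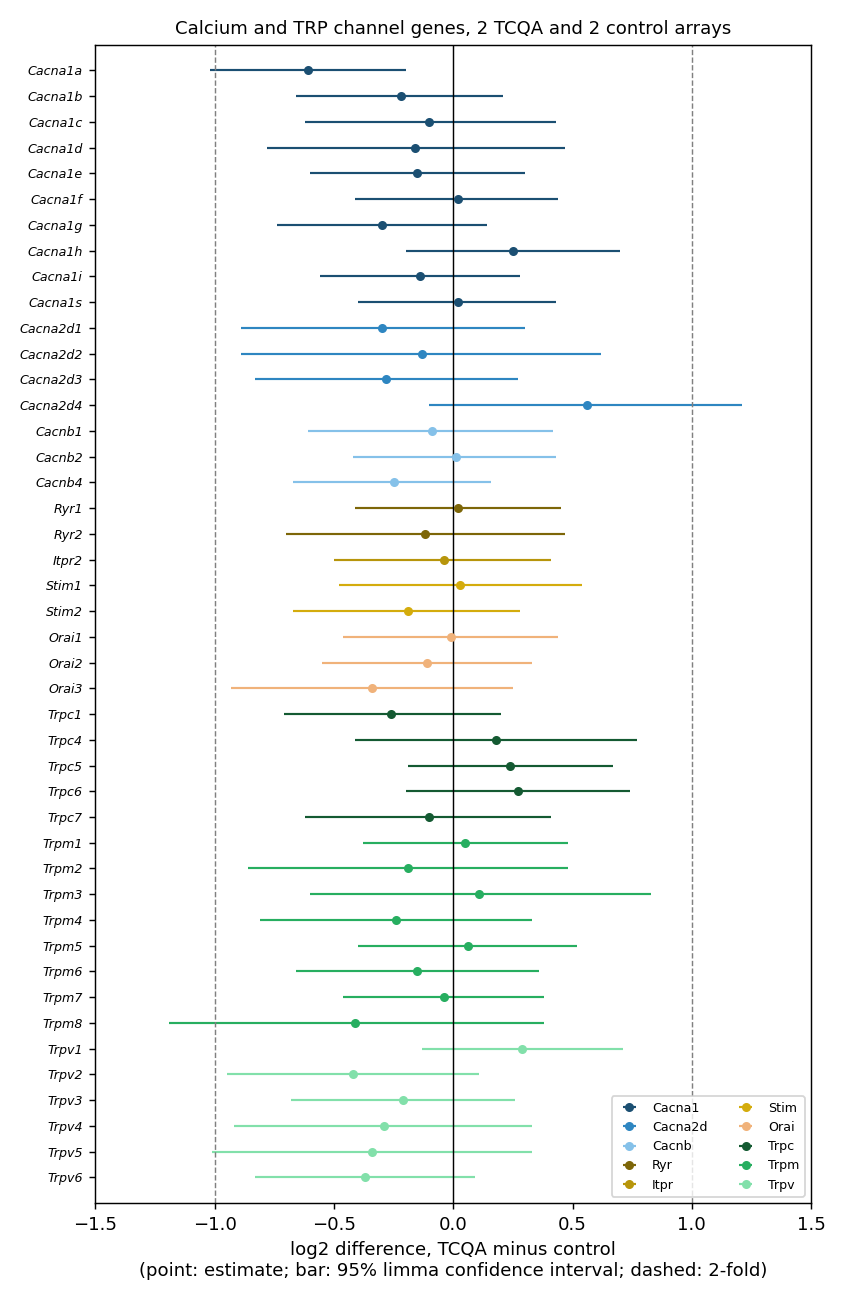
The log2 difference (TCQA minus control, x axis) is drawn for each of the 44 channel genes (rows, coloured by family), as a point with its 95% limma confidence interval; dashed lines mark a 2-fold change. The points lie between -0.61 (Cacna1a) and 0.56 (Cacna2d4), and the interval crosses 0 for every gene but Cacna1a.

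For 40 of the 44 members the 95% confidence interval lay wholly within a 2-fold change in either direction, as for 19192 of all 22206 gene probe sets. The exceptions among the members were Cacna1a, Cacna2d4, Trpm8 and Trpv5. An interval reached 0.41 to 0.79 to either side of the difference on the log2 scale, with a median of 0.47. With 2 arrays a group, a gene that missed the all-gene test is not shown to be unchanged. An exact permutation test of 2 arrays against 2 cannot give a two-sided p below 0.333, so none is given.

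**Figure D2:**
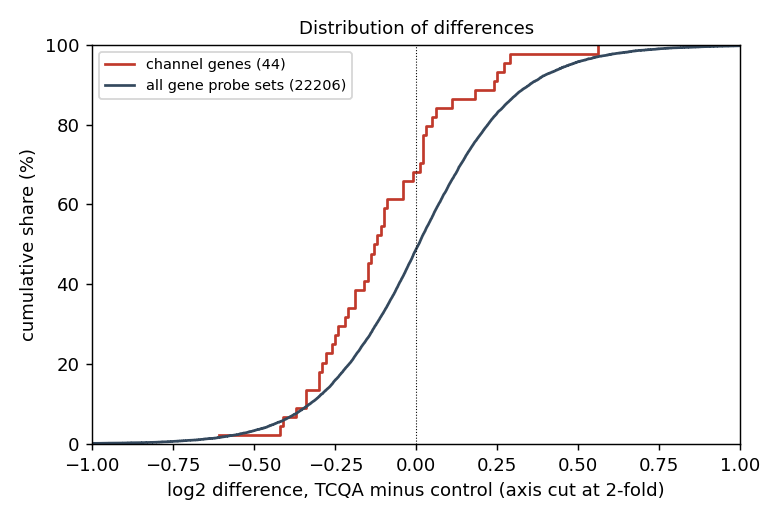
The cumulative share of genes (y axis, percent) is plotted against the log2 difference, TCQA minus control (x axis), for the 44 channel genes and for all 22206 gene probe sets. The channel gene curve stands left of the other near 0, with medians of -0.12 and 0.01.

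Signal over background was read from the control probe sets in place of depth. The median negative control lay between 7.17 and 7.32 on the 4 arrays, with 7.22 as their median, and the median of all gene probe sets lay between 7.12 and 7.17. For 25 of the 44 members both group means were at or above 7.22, for 18 both were under it, and for Trpv2 the TCQA mean alone was under it. Differences of the dim members are less certain. In the 25 members with a mean at or above 7.22 the median difference was -0.14, with 19 lower and 6 higher. In the 19 others it was -0.10, with 11 lower and 8 higher.

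Among the voltage-gated pore subunits 7 of 10 had a lower mean, with a median difference of -0.15. The 3 Cav2 genes, which encode the pores that trigger transmitter release at nerve terminals, were all lower in mean. Cacna1a, the P/Q-type pore, had log2 signals of 12.67 and 12.70 with TCQA, against 13.29 and 13.30 in control. The arrays of each group nearly coincided, and the groups stood clear of each other. The difference was -0.61 (95% confidence interval -1.02 to -0.20, limma unadjusted p = 0.0108, adjusted p = 0.787), a 1.53-fold lower signal. It kept a value between -0.63 and -0.59 when any 1 array was left out.

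Cacna1b, the N-type pore, averaged 13.48 ± 0.06 with TCQA, against 13.71 ± 0.12 in control (mean and SD of 2 arrays per group). Its arrays did not overlap either, but the difference of -0.22 had a confidence interval of -0.66 to 0.21. Cacna1e, the R-type pore, averaged 13.62 ± 0.06 with TCQA, against 13.78 ± 0.18 in control (mean and SD of 2 arrays per group), and its arrays overlapped.

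The T-type pores, or Cav3 channels, which open near the resting potential and support burst firing in thalamic and other neurons, did not share a direction. Cacna1g had log2 signals of 8.78 and 8.56 with TCQA, against 8.97 and 8.97 in control. Both TCQA arrays were low, and the difference of -0.30 had a confidence interval of -0.74 to 0.14. Cacna1i differed by -0.14 and Cacna1h by 0.25, also with arrays that did not overlap between groups.

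The L-type pores, or Cav1 channels, which couple depolarization to gene expression in neurons and to contraction in muscle, differed least. Cacna1c averaged 12.96 ± 0.25 with TCQA and 13.06 ± 0.23 in control, and Cacna1d 10.56 ± 0.28 with TCQA, against 10.71 ± 0.40 in control (mean and SD of 2 arrays per group). For both genes the replicates of a group lay further apart than the group means. Cacna1s, the skeletal muscle pore, and Cacna1f, the retinal pore, each differed by 0.02, with all 4 arrays under 7.22.

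The alpha2delta genes had more widely spaced replicates than the pores. Among alpha2delta genes the median gap between the TCQA arrays was 0.66 and that between the control arrays 0.21, against 0.12 and 0.08 among the pore genes. Cacna2d1, whose protein binds gabapentin, averaged 11.11 ± 0.44 with TCQA, against 11.40 ± 0.02 in control (mean and SD of 2 arrays per group), and TCQA replicate 2 alone was low. Cacna2d3 had log2 signals of 12.43 and 12.93 with TCQA, against 12.88 and 13.04 in control, and there TCQA replicate 1 was low. Cacna2d2 averaged 9.36 ± 0.60 with TCQA, against 9.49 ± 0.25 in control (mean and SD of 2 arrays per group), with the TCQA arrays the lowest and the highest of the 4.

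Cacna2d4, an alpha2delta gene known from photoreceptors, had the largest higher difference of the members. Its log2 signals were 5.55 and 6.24 with TCQA, against 5.46 and 5.21 in control. All of these were dim, under 7.22, and TCQA replicate 2 stood above the rest. The difference was 0.56 (95% confidence interval -0.10 to 1.21), and 0.21 without TCQA replicate 2.

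Of the beta subunits, Cacnb4, a partner of the P/Q-type pore whose loss causes epilepsy and ataxia in lethargic mice, had log2 signals of 13.89 and 13.90 with TCQA, against 14.12 and 14.18 in control. The groups did not overlap, and the difference of -0.25 had a confidence interval of -0.67 to 0.16. Cacnb1 had log2 signals of 12.99 and 13.04 with TCQA, against 13.33 and 12.88 in control, so that the control arrays lay on either side of the TCQA arrays. Cacnb2 differed by 0.01.

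**Figure D3:**
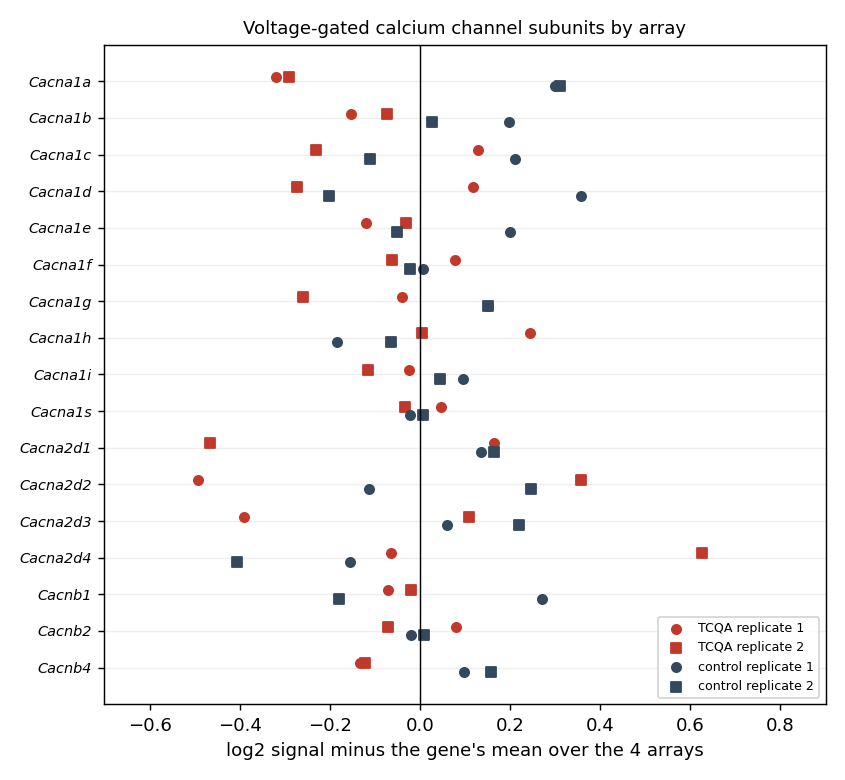
Each row is 1 of the 17 voltage-gated calcium channel subunit genes, and each point is 1 array (colour for the group, symbol for the replicate), as its log2 signal minus the gene's mean over the 4 arrays. TCQA points lie left of both control points for 5 genes, Cacna1a, Cacna1b, Cacna1g, Cacna1i and Cacnb4, and Cacna1a shows the widest gap of these. They lie right of both control points for 2 genes, Cacna1h and Cacna2d4. The shares over all gene probe sets are 17.8% below and 18.9% above. Alpha2delta genes have widely spaced TCQA replicates.

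The start regions of the voltage-gated genes whose arrays did not overlap in the lower direction are shown, as RefSeq gives them (GRCm38.p6), to let their base composition be compared. Each runs from 250 bases before to 50 after a transcript start, 5′ to 3′. Capitals mark the GC box GGGCGG, which Sp1 factors bind, and the core TGACG of the cyclic AMP response element, called the short element here, which CREB can bind, on either strand. Cacna1a and Cacna1g are named only. For Cacnb4 the first of 3 annotated starts is given.
Cacna1b, chr2:24763103-24763402, minus strand: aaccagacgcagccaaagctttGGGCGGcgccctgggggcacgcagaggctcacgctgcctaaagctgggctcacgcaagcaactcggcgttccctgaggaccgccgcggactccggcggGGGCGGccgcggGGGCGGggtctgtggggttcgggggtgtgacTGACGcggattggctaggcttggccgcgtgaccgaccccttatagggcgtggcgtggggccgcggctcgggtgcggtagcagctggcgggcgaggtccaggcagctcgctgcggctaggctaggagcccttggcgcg
Cacna1i, chr15:80286988-80287287, plus strand: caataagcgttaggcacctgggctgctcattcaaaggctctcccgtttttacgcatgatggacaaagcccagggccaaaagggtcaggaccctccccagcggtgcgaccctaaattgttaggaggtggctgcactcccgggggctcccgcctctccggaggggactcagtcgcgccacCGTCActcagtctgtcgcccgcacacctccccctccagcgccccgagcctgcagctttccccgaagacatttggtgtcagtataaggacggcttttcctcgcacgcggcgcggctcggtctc
Cacnb4, chr2:52676094-52676393, minus strand: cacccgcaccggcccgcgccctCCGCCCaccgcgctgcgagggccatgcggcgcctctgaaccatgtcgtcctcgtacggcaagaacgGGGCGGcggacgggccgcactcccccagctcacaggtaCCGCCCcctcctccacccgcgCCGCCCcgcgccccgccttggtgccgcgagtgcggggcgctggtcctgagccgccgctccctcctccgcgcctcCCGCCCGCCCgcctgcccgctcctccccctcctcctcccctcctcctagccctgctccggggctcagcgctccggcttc

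These windows are rich in G and C, at 72.3% for Cacna1b, 62.7% for Cacna1i and 78.3% for Cacnb4, against a median of 52.7% over all 32851 RefSeq start windows. Cacna1b held 3 GC boxes and 1 short element, Cacna1i held no GC box and 1 short element, and Cacnb4 held 6 GC boxes and no short element. RefSeq windows were matched for 39 of the 44 members, 50 windows in all, with a median of 58.8% G and C. A GC box stood in 46.0% of the member windows and in 35.7% of all windows. The short element stood in 13 of the 50 member windows and in 20.8% of all windows. The full element TGACGTCA, which contains the short element, stood in 0 of the 50 and in 1.79% of all windows. A match of letters is a description and not a bound site.

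Channels of the calcium store and of store-operated entry differed little, with differences from -0.34 to 0.03 and a median of -0.08 over 8 genes. Their arrays overlapped between groups in all 8, where 36.6% of all gene probe sets did not overlap. Ryr2, the ryanodine receptor of heart and of forebrain neurons, had log2 signals of 11.39 and 10.82 with TCQA, against 11.32 and 11.12 in control. TCQA replicate 2 was the low array. Ryr1, the skeletal muscle form, had dim signals of 6.04 and 6.19 with TCQA, against 6.14 and 6.05 in control. Itpr2, the IP3 receptor that carries most of the calcium release in astrocytes, had 9.14 and 9.38 with TCQA, against 9.38 and 9.23 in control. These intermixed values gave differences of 0.02 for Ryr1 and -0.04 for Itpr2.

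Of the sensors, Stim2, the more abundant form in neurons, had log2 signals of 9.61 and 9.31 with TCQA, against 9.56 and 9.74 in control. Stim1 had 8.14 and 7.97 with TCQA, against 7.82 and 8.23 in control. Neither set of arrays separated the groups. Among the pores Orai3 had 7.97 and 8.25 with TCQA, against 8.73 and 8.18 in control, and control replicate 1 was the high array. Its difference of -0.34 was -0.06 without that array. Orai2 had dim signals of 5.98 and 5.96 with TCQA, against 6.19 and 5.96 in control, and Orai1, the pore of T cells, differed by -0.01 with dim signals on all 4 arrays.

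The TRPC channels, which phospholipase C opens downstream of metabotropic receptors, went both ways, with 2 lower and 3 higher. Trpc1, a subunit that assembles with other TRPC proteins, had log2 signals of 10.93 and 11.17 with TCQA, against 11.38 and 11.23 in control. Trpc6 had dim signals of 6.29 and 6.19 with TCQA, against 5.81 and 6.12 in control. Both genes had arrays that did not overlap, in opposite directions, with differences of -0.26 and 0.27 and confidence intervals that held 0. Trpc5, a channel of hippocampal and cortical neurons, averaged 9.18 ± 0.10 with TCQA, against 8.94 ± 0.08 in control (mean and SD of 2 arrays per group). Its interval of -0.19 to 0.67 held 0 too. Trpc4 differed by 0.18 and Trpc7 by -0.10.

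The TRPM channels include heat, cold and taste sensors, channels fused to kinases, and a channel opened by oxidative stress. Of these 8 genes, 0 had arrays that separated the groups, as 36.6% of all gene probe sets did, and the median difference was -0.10. Trpm8, the cold and menthol receptor of sensory neurons, had dim signals of 4.04 and 4.60 with TCQA, against 4.32 and 5.13 in control. Trpm4, which calcium itself opens, had 7.35 and 7.53 with TCQA, against 7.95 and 7.41 in control, where control replicate 1 was high. Trpm7, a ubiquitous channel kinase that carries magnesium, differed by -0.04 (confidence interval -0.46 to 0.38). Trpm2, the oxidant-sensitive channel, averaged 6.87 ± 0.53 with TCQA, against 7.06 ± 0.11 in control (mean and SD of 2 arrays per group), and its TCQA arrays were the highest and the lowest of the 4. Trpm1, Trpm5 and Trpm6 were dim, with differences of 0.05, 0.06 and -0.15.

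Trpm3, a steroid- and heat-activated channel that is abundant in the choroid plexus, differed between replicates more than between groups. This gene was picked out after its values were seen. It had log2 signals of 11.58 and 12.15 with TCQA, against 11.44 and 12.07 in control, and replicate 1 was the lower array in both groups. Ttr, the choroid plexus transthyretin gene, had 12.23 and 14.97 with TCQA, against 7.49 and 16.42 in control. Summed over 9 choroid plexus markers the log2 signals were 64.0 and 70.5 with TCQA, against 56.2 and 74.1 in control, lower on replicate 1 in both groups as for Trpm3. That sum includes Ttr, and Aqp1 alone among the 9 was higher on replicate 1 in both groups. Replicate gaps of Trpm3 were alike, 0.57 with TCQA and 0.63 in control, where those of Ttr were 2.75 and 8.93. The part of choroid plexus tissue in the Trpm3 values was not tested.

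The TRPV genes, with the capsaicin receptor Trpv1 as the founding member, had the lowest family median, at -0.32, with 5 of 6 lower, but 5 of the 6 were under 7.22 in both groups. Trpv2 had log2 signals of 6.64 and 7.10 with TCQA, against 7.22 and 7.36 in control. Trpv6, an epithelial calcium channel, had 4.29 and 4.08 with TCQA, against 4.45 and 4.66 in control. Both had TCQA arrays below the control arrays, with differences of -0.42 and -0.37, and both intervals reached past 0, to 0.11 for Trpv2 and 0.09 for Trpv6. Trpv3, a warmth channel of skin, differed by -0.21, Trpv4, an osmosensitive channel, by -0.29 and Trpv5, a renal calcium channel, by -0.34. Trpv1 went the other way, by 0.29, at a dim 3.71 ± 0.09 with TCQA, against 3.42 ± 0.04 in control (mean and SD of 2 arrays per group).

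**Figure D4:**
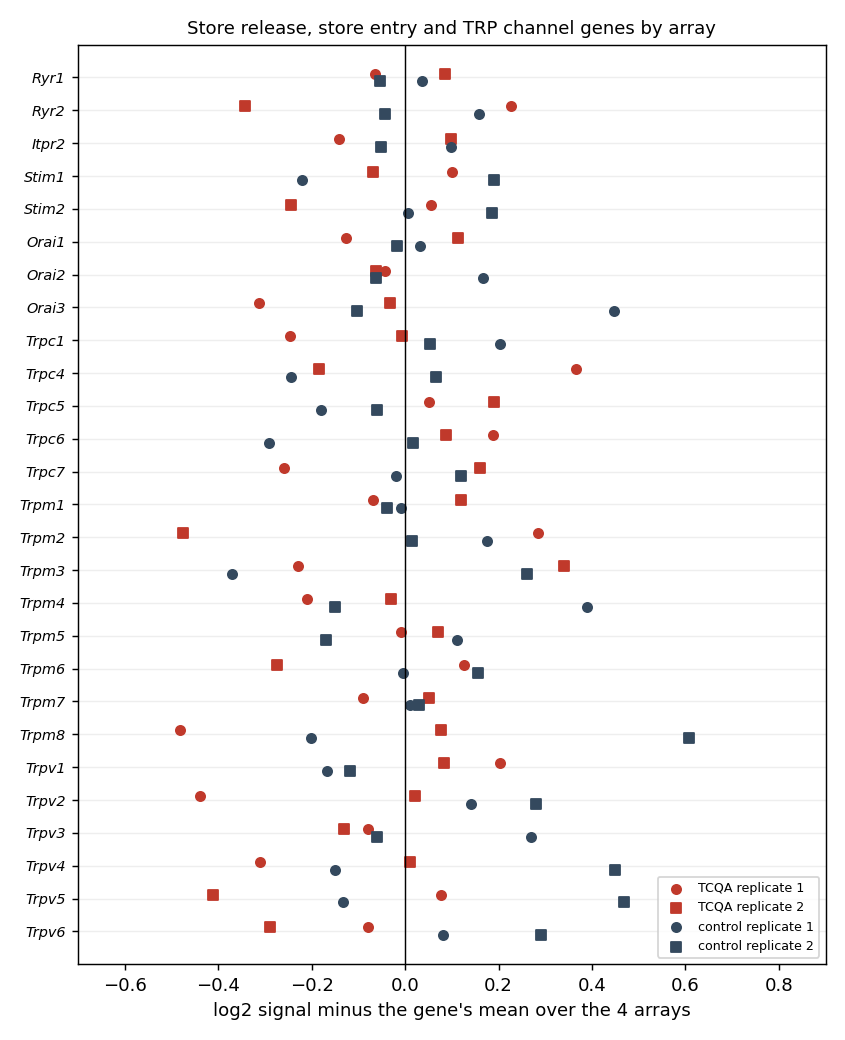
Rows are the 27 store release, store entry and TRP channel genes, and each point is 1 array (colour for the group, symbol for the replicate), plotted as the log2 signal minus the gene's mean over the 4 arrays. TCQA and control points are intermixed for all 8 store genes and all 8 TRPM genes. TCQA points lie left of both control points for Trpc1, Trpv2, Trpv3 and Trpv6, and right of both for Trpc5, Trpc6 and Trpv1. The shares over all gene probe sets are 17.8% below and 18.9% above.

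Of the 44 members, 18 had their lowest signal on TCQA replicate 1, 16 on TCQA replicate 2, 7 on control replicate 1 and 3 on control replicate 2. Over all gene probe sets each array was the lowest for 23.2% to 27.1%. The highest array was more evenly placed, with 10 members each for the TCQA arrays and 12 each for the control arrays. Each array was the highest for 23.8% to 26.4% of all gene probe sets. Leaving out TCQA replicate 1 gave a median over the members of -0.12, and leaving out TCQA replicate 2 gave -0.10. The same step gave -0.05 for control replicate 1 and -0.09 for control replicate 2.

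Markers of cell types and of neighbouring regions were set beside the members. Excitatory neuron markers were lower in mean in 7 of 9, with a median of -0.28. At an unadjusted p under 0.05 in limma 3 of the 9 were lower, as were 2.86% of all gene probe sets. Their summed log2 signals were 117.1 and 113.1 with TCQA, against 118.4 and 116.4 in control, so TCQA replicate 2 was lowest. That array was lowest for 16 of the 44 members and for 24.9% of all gene probe sets. Striatal markers had a median of -0.06 and summed to 105.2 and 109.6 with TCQA, against 107.4 and 109.3 in control. TCQA replicate 1 was lowest for 8 of these 8, for 18 of the 44 members and for 24.8% of all gene probe sets. Which TCQA array was lowest can rest on a small gap. For Cacna1a these arrays nearly coincided, at 12.67 and 12.70, so their order carries little weight. Both group means were at or above 7.22 for 9 of 9 excitatory markers, but also for 8 of 8 striatal and 8 of 10 thalamic markers, so this check does not separate cortex from those regions.

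Several lists had higher means with TCQA. All 10 meningeal fibroblast markers had higher means, by a median of 0.51, and 4 were at an unadjusted p under 0.05 in limma, where 6.24% of all gene probe sets had one in either direction. For 8 of them the lowest signal was on control replicate 1. For thalamic markers the median was 0.44, and 7 of 10 were higher. The 2 that met the depositors' criterion were Calb2 and Zic1, where 0.374% of all gene probe sets met it. Both had their lowest signal on control replicate 1, as did 7 of the 10. Gbx2, Plekhg1 and Rora went the other way, with differences of -0.22, -0.12 and -0.02. The thalamic markers summed to 95.5 and 99.1 with TCQA, against 88.8 and 94.2 in control. Tcf7l2, a thalamic transcription factor gene, had log2 signals of 9.71 and 11.54 with TCQA, against 9.74 and 10.18 in control. Inhibitory neuron markers were higher in 7 of 10 (median 0.35) and astrocyte markers in 8 of 10 (median 0.22). Medians were 0.22 for cerebellar neurons, 0.19 for endothelial and mural cells, 0.09 for microglia, 0.03 for oligodendrocytes, 0.03 for hippocampal neurons and -0.07 for choroid plexus. Immediate early genes, which neuronal activity induces, were lower in 19 of 20 with a median of -0.64, and control replicate 1 was highest for 19 of them. That array was highest for 12 of the 44 channel genes (27.3%), near the 23.8% of all gene probe sets. The part of these shifts in the channel values was not tested.

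The wider calcium-handling machinery was read from 8 lists of 124 different genes. It was evenly split, with 64 lower, 60 higher and a median of 0.00. At an unadjusted p under 0.05 there were 3 lower and 1 higher genes, where 6.24% of all gene probe sets had one, and 0 passed limma with adjustment over all genes. Slc24a2, a potassium-dependent sodium-calcium exchanger of neurons, had log2 signals of 13.86 and 13.73 with TCQA, against 14.32 and 14.37 in control. Atp2a3, a calcium pump of the endoplasmic reticulum, had 7.83 and 8.20 with TCQA, against 7.35 and 7.54 in control. Their arrays did not overlap, in opposite directions, with differences of -0.54 and 0.57. Dgkz, a diacylglycerol kinase that ends phospholipase C signals, differed by -0.54, and Casq2, a calcium buffer of the store that was dim here, by -0.57.

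By list, 11 of 17 pumps and exchangers were lower (median -0.04), as were 9 of 18 partners of the release channels (median -0.04), 13 of 23 genes of calmodulin and its kinases and phosphatase (median -0.02) and 12 of 24 genes of Gq and phospholipase C (median -0.01). Of the partners of voltage-gated channels, among them the gamma subunits, 6 of 16 were lower (median 0.04). Lower means were found for 5 of 9 regulators of store-operated entry (median -0.01), 5 of 9 genes of the mitochondrial uniporter (median 0.00) and 3 of 8 other TRP and lysosomal channels (median 0.11).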

How the data were processed

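The authors deposited log2 signals, 1 per probe set. Per the series' design text these came from SST-RMA in the Transcriptome Analysis Console 4.0.2, which equalizes signal distributions over arrays. Differences were taken within a probe set, between arrays. Levels were set against the negative controls to call a probe set dim, and against other probe sets of a symbol to pick the brightest. The submitters' processing notes name RMA and limma, and the sources used here name no genome build for the annotation. From the deposited log2 values, 6640 control probe sets were set aside and TCQA minus control was fitted with limma 3.58.1 in R 4.3.3 (lmFit and eBayes, two-sided, 2 residual and 4.23 prior degrees of freedom), adjusted by Benjamini-Hochberg over 22206 gene probe sets. Dim probe sets stayed in. The fit was tested on simulated data. There a change of 1 on the log2 scale reached a limma adjusted p under 0.05 in 3.6% of cases, and a change of 3 in 96.6%.

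Members and lists were chosen with earlier results of these data known. Per-array values are given for members with an unadjusted p under 0.05 and the 2 smallest p of each family, others by difference, and those given with group means and SDs were picked after their values were seen. Symbols come from the platform annotation. For pathway genes with several probe sets the brightest was used. Alternatives were the replicate number as a block, each array left out, other moderation, scaling, a filter on dim probe sets, control probe sets kept, and pore subunits alone.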

Additional observations from a re-analysis of the deposited data

How the results depend on the processing

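With 2 arrays a group, precision is limited by their number, and for dim genes by signal over background. Cacna1a kept its direction and an unadjusted p under 0.05 in limma under all 11 alternatives fitted, with p from 0.000914 to 0.0447 and adjusted p from 0.495 to 0.98. The number of members with an unadjusted p under 0.05 was 1 to 3 with 1 array left out and 3 without moderation. It was 3 without TCQA replicate 1 (with Cacna2d1 at -0.61 and Cacna2d4 at 0.90), 2 without TCQA replicate 2 (with Trpv2 at -0.65) and 2 without control replicate 1 (with Trpm8 at -0.81). Without moderation the additions were Cacnb4 and Trpv1. Over all 22206 gene probe sets the same fits gave 1463 (TCQA replicate 1 left out), 1658 (TCQA replicate 2 left out), 1103 (control replicate 1 left out) and 1353 (no moderation), so the members' counts lay near the background. The lone array of a group was assumed to vary like the others. Probe sets with an adjusted p under 0.05 numbered 0 to 4 with 1 array left out, 4 of them without TCQA replicate 1, and none was a member. Refitted alone, 922 of the 10952 probe sets with a mean at or above the median negative control had an unadjusted p under 0.05 in limma. In the main fit 4.99% of them had one, as did 1386 of all 22206, so the refit called a larger share. In the refit 19 of 25 members were lower. The sign changed without at least 1 array in 24 of the 44 members, and held in 20, of which 15 were lower. Quantile normalization changed the sign of 1 member, Ryr1 (-0.01). The replicate numbers did not pair the arrays in the labels, and deviations of same-numbered arrays correlated at 0.0507 over probe sets. With the replicate block, 1425 gene probe sets and 1 member had an unadjusted p under 0.05, and the members' median was -0.12.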

Other observations

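Of the 8 genes left out by the naming rule, Stimate, a STIM-activating protein of the endoplasmic reticulum, had dim log2 signals of 6.63 and 6.13 with TCQA, against 5.93 and 5.93 in control, a difference of 0.45. Itpripl2, also dim, differed by 0.33, with TCQA arrays at 5.68 and 5.80, against 5.25 and 5.57 in control. Itprip, dim as well, differed by -0.31, with TCQA arrays at 4.90 and 4.75, against 5.51 and 4.76 in control. Trpc5os, on the strand opposite Trpc5, differed by -0.25 while Trpc5 differed by 0.24.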
